A study of Mus musculus with 19 samples.

Results

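The complement components and receptors described here are 9 protein-coding genes taken by name from 55487 annotated mouse genes: C1qa, C1qb, C1qc, C4b, C3, Cfp, Serping1, C3ar1 and C5ar1. All 9 were detected in every one of 19 cortex RNA-seq libraries and all 9 passed the filter on low counts. A further 47 genes of the complement system, grouped by role, were listed beside them. The libraries came from male P301S/E4 mice aged 41 weeks. In the notation of the field this genotype joins a transgene for human tau with the P301S mutation, which forms tau aggregates, to the human E4 allele of apolipoprotein E; the labels give neither the promoter of the transgene nor a mouse without it. Lemborexant, an antagonist of both orexin receptors that is used as a sleep medicine, was given by gavage at 30 mg/kg once a day at ZT13, in the time scale where ZT0 is lights on, from 7.5 to 9.5 months of age. The lemborexant group has 10 libraries and the group given 0.5% methylcellulose as vehicle has 9. All libraries carry the same genotype label, so no comparison with animals outside the model is made here.

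Complement is a cascade of plasma and tissue proteins that tags surfaces for removal. C1q, built from chains A, B and C, recognises the target in the classical pathway; C1r and C1s bound to it cleave C4 and C2, and the enzyme formed cleaves C3, whose fragments coat the target and signal through receptors. In the brain, microglia make most C1q, reactive astrocytes are a known source of C4 and C3, and C1q and C3 have been linked to the loss of synapses in tau and amyloid models.

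Total reads assigned to genes ran from 20185098 to 31795633 per library, and levels are given as CPM, read counts scaled to a common library size with TMM factors. Libraries are named by treatment and a number in accession order; the labels do not tie each one to its own mouse, and the p-values then reflect only how much these libraries vary, part of which may be technical. Among lemborexant libraries, 1 and 10, 3 and 8, and 4 and 9 were nearly alike: a chi-square of their counts, divided by its degrees of freedom, gave 3.08 to 3.66, where the 168 remaining pairs of libraries gave 12.2 to 274. They differed by more than counting noise, which does not show that they came from separate mice. Lemborexant 8, 9 and 10 are the 3 lemborexant libraries numbered 859 to 933, and their partners are numbered 1064 to 1602. Fits to either number range therefore do not rest on clearly separate lemborexant material. The pairs were kept as separate libraries, so the 10 lemborexant libraries may count some mice more than once. The treatment change of each of the 9 genes is also given with the pairs summed, which leaves 16 units. Cst7, a microglial gene known for its induction around aggregates, was at 0.115 CPM in lemborexant 1, 0.253 in lemborexant 10, 0.188 in vehicle 4 and had 0 reads in vehicle 1, where 3 reads would be 0.147 CPM. In the other 15 libraries (8 lemborexant, 7 vehicle) it ran from 16.3 to 144 CPM. These 4 libraries, 3 units with the pair counted once, are called Cst7-low below. Mapt, the mouse tau gene, was at 311 to 467 CPM in the Cst7-low libraries and 573 to 1040 in the other 15. Prnp, the prion protein gene, was at 662 to 1040 CPM there and 1000 to 2130 in the others. All 4 carry the genotype label of the rest, but the labels give no check of the transgene in single animals. Whether these 4 animals carried it was not tested, and the Cst7-low contrast is therefore one between libraries and not between known states of the model. Fewer cells of a type and less RNA per cell cannot be told apart in tissue libraries.

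Per transcript length, the C1q chains had the highest median levels of the 9 transcripts. In TPM, which divides by transcript length, the median level over 19 libraries was 941 for C1qb, 215 for C1qa, 154 for C1qc, 112 for C4b, 36.9 for Serping1, 9.30 for C3ar1, 6.32 for C5ar1, 4.81 for C3 and 3.81 for Cfp. C1qb was above C1qa, C4b above Serping1 and Serping1 above C3ar1 in 19 of 19 libraries. Other neighbours changed places in some libraries: C1qa was above C1qc in 18 of 19 and C1qc above C4b in 16 of 19. C5ar1 was above C3 in 11 of 19. C3ar1 was above C5ar1 in 15 of the 15 libraries with Cst7 of at least 1 CPM and in 0 of the 4 Cst7-low ones, and C3 was above Cfp in 12 of 15 and 0 of 4.

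Across the 9 genes, 7 were lower in all 4 Cst7-low libraries than in any of the other 15, where 6.29% of 19105 tested genes were. The exceptions were Cfp and C5ar1. Measured Cst7 values chose these 4 libraries, so the levels are a description and no test was made. The sum of neuron markers went the other way: it was 6080 to 7030 CPM in the Cst7-low libraries and 2260 to 5500 in the others, with 0 of 5 markers at 0. Of the 5, Snap25 was higher in all 4 (4590 to 5360 against 1590 to 4040 CPM) and the other 4 overlapped. Among all 19105 tested genes, 436 were higher in all 4. The part of neuronal RNA in the levels of the 9 genes was not tested. By treatment, edgeR's quasi-likelihood test called 0 of 9 genes at an adjusted p of 0.05, where it called 2.61% of all tested genes (498 of 19105), and 1 of 9, Cfp, had an unadjusted p below 0.05. DESeq2 and limma-voom also called 0 of 9. With the nearly alike pairs summed, 0 of 9 members and 0 genes in all were called, with 4101 genes at an unadjusted p below 0.05. Among the 15 libraries with Cst7 of at least 1 CPM, 0 of 9 were called, where 2.71% of 19230 genes were.

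**Figure D1:**
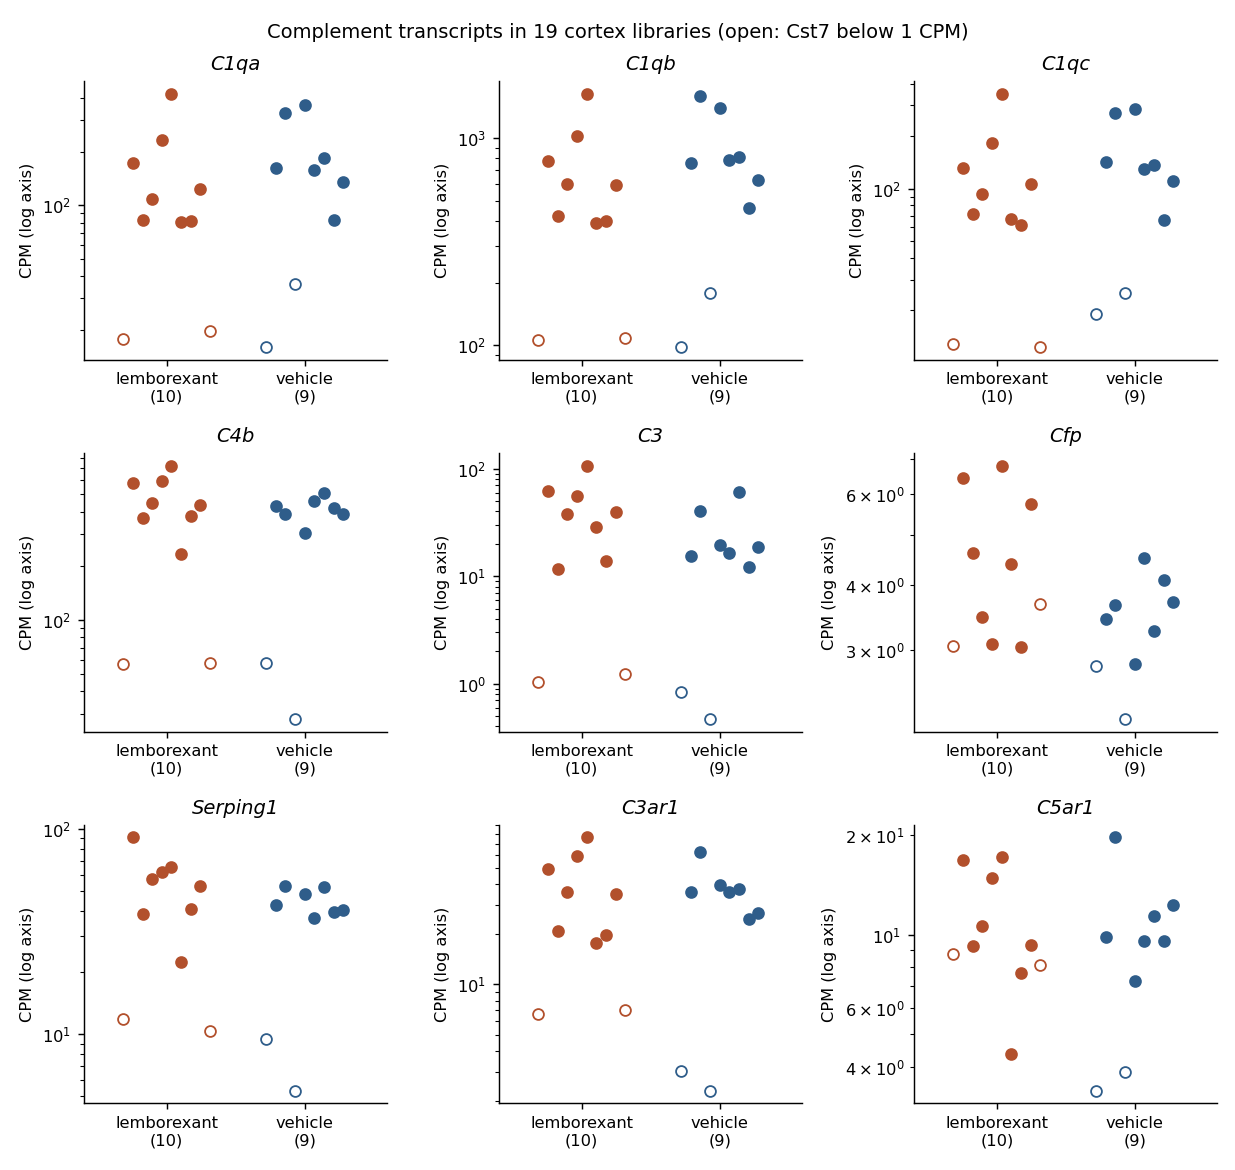
CPM of each of the 9 complement transcripts on a log axis, 1 point per library, by treatment (10 lemborexant, 9 vehicle); open points are the 4 libraries with Cst7 below 1 CPM. Open points lie below every filled point for all genes drawn except Cfp and C5ar1, while the filled points of both treatments overlap for all 9.

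C1qa, C1qb and C1qc encode the 3 chains of C1q and sit side by side on the minus strand of chromosome 4 (GRCm38): C1qb (ENSMUSG00000036905) at 136880129 to 136886187, C1qc (ENSMUSG00000036896) at 136889804 to 136893065 and C1qa (ENSMUSG00000036887) at 136895917 to 136898803. Their transcripts share 0 runs of 50 bases, so their reads can be told apart at that length. Because the chains moved together from library to library, the 250 bases before the RefSeq start of C1qb and C1qc (GRCm38.p6, minus strand, 5′ to 3′) are printed here, with capitals marking the sequence GAGGAA or its reverse complement TTCCTC, the core bound by PU.1, the factor that specifies macrophages and microglia. C1qb lies at chr4:136886201-136886450 and C1qc at chr4:136892915-136893164.
C1qb: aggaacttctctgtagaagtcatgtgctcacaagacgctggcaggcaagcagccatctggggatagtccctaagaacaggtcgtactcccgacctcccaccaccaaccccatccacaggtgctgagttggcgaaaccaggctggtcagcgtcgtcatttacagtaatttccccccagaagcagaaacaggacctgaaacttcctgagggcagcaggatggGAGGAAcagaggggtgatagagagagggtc
C1qc: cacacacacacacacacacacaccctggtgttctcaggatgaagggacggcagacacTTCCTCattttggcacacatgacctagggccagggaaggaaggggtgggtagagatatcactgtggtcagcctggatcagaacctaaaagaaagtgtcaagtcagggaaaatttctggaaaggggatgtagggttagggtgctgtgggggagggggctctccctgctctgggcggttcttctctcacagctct
Each window holds 1 match, 30 bases before the RefSeq start in C1qb and 193 bases in C1qc, and on opposite strands. The RefSeq start of C1qc lies inside the gene range given above, so part of its window lies within that range. Among 32851 promoters of the same length 23.3% hold the sequence on either strand, so a match is not rare. Of the 6 members with a RefSeq promoter entry (also C3, C3ar1, C5ar1 and Cfp), 2 hold it, and 0 hold TTCNNNGAA, the STAT core, which 7.02% of promoters hold.

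C1qa ran from 17.7 to 423 CPM in the lemborexant libraries (median 95.9) and from 16 to 366 in the vehicle libraries (median 158). The Cst7-low libraries were at 17.7, 19.8, 16 and 36.1 CPM (lemborexant 1 and 10, vehicle 1 and 4), and the other 15 at 80.7 to 423 with a median of 158. Lemborexant 6 was highest, followed by vehicle 5 and vehicle 3, so high and low libraries occurred in both groups. Mean C1qa was 134 ± 120 CPM (SD, n = 10) after lemborexant and 163 ± 119 (SD, n = 9) after vehicle, a log2 change of -0.28 ± 0.55 (SE; 95% interval -1.35 to 0.79; edgeR adjusted p = 0.773). The interval spans changes in both directions, so the data do not show the groups to be alike.

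C1qb had a median of 510 CPM after lemborexant (106 to 1640) and 756 after vehicle (97.9 to 1590). The Cst7-low libraries were at 106, 108, 97.9 and 178 CPM against 389 to 1640 in the others. C1qc had medians of 82.2 (12.3 to 350) and 129 CPM (19 to 286), with the Cst7-low libraries at 12.8, 12.3, 19 and 25.2 against 61.4 to 350. As for C1qa, the 3 highest libraries of both chains were lemborexant 6, vehicle 3 and vehicle 5. The median of the 15 libraries was 8.43 times that of the Cst7-low ones for C1qa, 7.05 times for C1qb and 8.09 times for C1qc. Treatment differences were -0.30 ± 0.49 for C1qb (log2, SE; edgeR adjusted p = 0.732) and -0.28 ± 0.55 for C1qc (adjusted p = 0.776). With the nearly alike pairs summed, all 3 chains came nearer to 0, at -0.03, -0.08 and -0.03 for chains A, B and C.

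The proportion of the chains varied much less than their level. The C1qb to C1qa count ratio ran from 3.84 to 6.11 over the 19 libraries while C1qa itself ran from 16 to 423 CPM. The C1qc to C1qa ratio ran from 0.743 to 0.869 in the 15 libraries and from 0.621 to 1.18 in the Cst7-low ones, with the highest value in vehicle 1. By treatment, the mean log2 ratio of C1qb to C1qa was 2.296 ± 0.181 (SD, n = 10) and 2.276 ± 0.194 (SD, n = 9), a difference of 0.020 (exact permutation test, two-sided p = 0.818). For C1qc to C1qa it was -0.351 ± 0.146 and -0.269 ± 0.213, a difference of -0.081 (exact permutation test, two-sided p = 0.378, adjusted over the 2 ratios 0.756).

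Some microglial transcripts shared the direction of the C1q step between the Cst7-low libraries and the rest. Of all tested genes, 6.29% were lower in all 4 Cst7-low libraries. Of 8 microglia markers, 4, among them Cx3cr1, Csf1r and Gpr34, were lower in all Cst7-low libraries and 4 (P2ry12, Tmem119, Sall1 and Siglech) overlapped. The summed list was at 316 to 490 CPM there and 605 to 1620 in the other 15, with 0 markers at 0. The ratio of medians, the 15 libraries over the Cst7-low ones, was 2.65 for Cx3cr1, 3.15 for Csf1r and 3.20 for Gpr34. For the C1q chains it was larger, at 7.05 to 8.43. The C1qa to P2ry12 count ratio was 0.197 to 0.547 in the Cst7-low libraries and 1.19 to 4.61 in the others, without overlap, while C1qa to Csf1r was 0.162 to 0.415 against 0.393 to 1.43, with overlap. Of 8 microglial activation genes, 7 were lower in all 4 (Lpl overlapped), and their sum was at 106 to 149 CPM against 365 to 1990; Cst7 itself is on that list. The part of microglial number in the C1q levels was not tested. By treatment, 0 of 8 microglia markers were called, where 2.61% of all tested genes were, with 6 of 8 lower after lemborexant.

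By root mean square difference of centred log2 CPM over the 19 libraries, among 13942 candidate genes, C1qa was nearest to Tyrobp (0.17), an adaptor of microglial receptors, then to C1qc and C1qb (0.18 each). C1qb was nearest to Ctss (0.13), the protease cathepsin S, then to Cyba (0.15) and Cd300c2 (0.17). C1qc was nearest to C1qa and Tyrobp (0.18 each) and Trem2 (0.19), the receptor that pairs with Tyrobp. Since 15 of the 19 libraries stand far above the others, many genes that share that step score close.

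**Figure D2:**
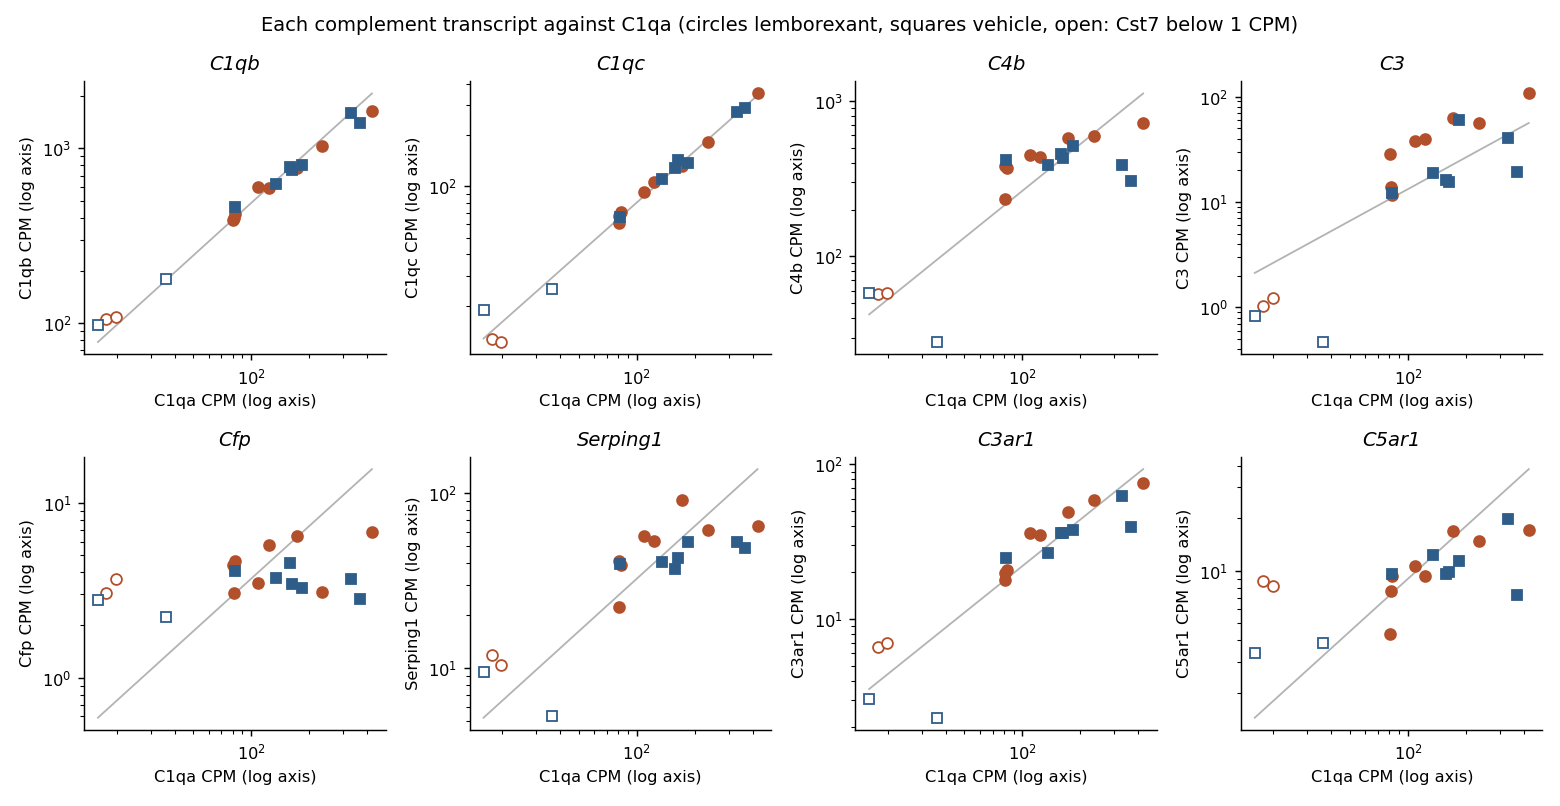
CPM of the other 8 transcripts against C1qa CPM, both on log axes, 1 point per library (circles lemborexant, squares vehicle, open points Cst7 below 1 CPM); the grey line marks a constant ratio to C1qa. C1qb and C1qc stay near the line, filled points of C4b stay between 234 and 723 CPM along the axis, and Cfp and C5ar1 cross the line.

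C4b and C3 encode the precursors whose fragments bind covalently to target surfaces. C4b (ENSMUSG00000073418, chromosome 17, 34728380 to 34743882, minus strand) had a median of 407 CPM after lemborexant (57.0 to 723) and 390 after vehicle (28.1 to 510). The Cst7-low libraries were at 57.0, 57.8, 57.7 and 28.1 CPM, and the other 15 at 234 to 723. Its lowest value among the 15 was 4.05 times its highest among the 4, a wider gap than that of the C1q chains (2.19 to 2.43 times). Group means were 388 ± 221 CPM (SD, n = 10) and 332 ± 173 (SD, n = 9); on the log2 scale the change was 0.22 ± 0.49 (SE; 95% interval -0.73 to 1.18; edgeR adjusted p = 0.801). In the 15 libraries alone the interval narrowed to -0.18 to 0.53 (adjusted p = 0.581). With the pairs summed the change was 0.36 (adjusted p = 0.694).

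Within the 15, C4b and C1qa were both high in some libraries and apart in others. In the lemborexant libraries, numbers 6, 5 and 2 were highest for both (C1qa 423, 234 and 172 CPM, C4b 723, 596 and 578) and number 7 was lowest for both (80.7 and 234). In the vehicle libraries, numbers 5 and 3, highest for C1qa at 366 and 329 CPM, had C4b at 306 and 388, the lowest of the 7, while vehicle 8, with C1qa at 82.2, had 420. The C4b to C1qa count ratio ran from 1.71 to 4.66 in the 8 lemborexant libraries and from 0.835 to 5.10 in the 7 vehicle libraries; the difference between the treatments in this pattern was not tested. C4b varied 3.09-fold among the 15, the C1q chains 4.22-fold to 5.71-fold. C4a, the neighbouring copy, shares 35.2% of 50-base runs with C4b, so the split of reads between them is uncertain; C4a was at most 2.36 CPM.

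Most astrocyte markers shared the direction of the C4b step between the Cst7-low libraries and the rest, where 6.29% of all tested genes were lower in every Cst7-low library. Of 6 astrocyte markers, 5 (Aqp4, Slc1a3, Gja1, Aldh1l1 and Gfap) were lower in all Cst7-low libraries and Aldoc overlapped; the sum was 3780 to 4320 CPM against 6930 to 14400, with 0 markers at 0. Relative to Gfap, the filament protein that rises in reactive astrocytes, C4b overlapped between the sets, with count ratios of 0.0573 to 0.134 in the Cst7-low libraries and 0.0360 to 0.119 in the others. Relative to Aldoc the ratios were 0.0110 to 0.0284 and 0.0985 to 0.275. How much of C4b came from astrocytes was not tested. Its nearest genes were Lgals3bp (0.23), Tent5c (0.29) and Ptprc (0.31), the pan-leukocyte receptor CD45.

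C3 (ENSMUSG00000024164, chromosome 17, 57203970 to 57228136, minus strand) had the widest range of the 9. It was at 1.03, 1.23, 0.833 and 0.470 CPM in lemborexant 1 and 10 and vehicle 1 and 4, the last from 10 reads, and at 11.6 to 107 CPM in the other 15 (median 28.7), whose median was 30.9 times that of the 4. Lemborexant 6 was highest, followed by lemborexant 2 at 62.3 and vehicle 7 at 60.4. Over all libraries the median was 33.3 CPM after lemborexant (1.03 to 107) and 16.3 after vehicle (0.470 to 60.4), with overlapping ranges. The means were 35.8 ± 32.8 CPM (SD, n = 10) and 20.5 ± 19 (SD, n = 9); on the log2 scale the change was 0.80 ± 0.74 (SE; 95% interval -0.65 to 2.25; edgeR adjusted p = 0.503), which did not pass. With the pairs summed it was 1.08 (adjusted p = 0.406). In the 15 libraries it was 0.75 ± 0.45 (adjusted p = 0.31), and with both together 0.95 ± 0.45 (unadjusted p = 0.0517, adjusted p = 0.248).

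Vehicle 7, highest for C3 in its group, stood apart in liver transcripts. Its summed hepatocyte markers reached 1530 CPM, against at most 52.5 in any other library, with Alb at 329 CPM there and at 0 in 6 of the others; Serpina1c was at 0 in 11 libraries, Fgb in 4 and Cyp2e1 in 1. Without vehicle 7 the C3 log2 change was 1.21 ± 0.76 (adjusted p = 0.329), and the other vehicle libraries reached no more than 40.5 CPM. C3 was higher still in lemborexant 6 and 2, where hepatocyte markers summed to at most 7.39 CPM, as in every lemborexant library; the part of liver transcripts in the C3 of vehicle 7 was not tested. Markers of border macrophages were also higher after lemborexant in 6 of 6 genes. Of these, Mrc1 (edgeR adjusted p = 0.0363) and F13a1 (0.0320) were called in the 19 libraries, where 2.61% of all tested genes were. Like every gene, they were not called with the pairs summed. The sum of the 6 markers ran from 9.40 to 52.8 CPM after lemborexant and 5.97 to 21.0 after vehicle, with 0 markers at 0. Their part in C3 was not tested. C3 stood less close to any gene than the C1q chains did, the nearest being Cybb (0.56), the phagocyte oxidase subunit, Ly9 (0.67) and Cd22 (0.68).

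Cfp encodes properdin, which stabilises the alternative-pathway enzyme that cleaves C3 and is the one positive regulator among these genes (ENSMUSG00000001128, chromosome X, 20925454 to 20931555, minus strand). It was low and flat: 3.04 to 6.81 CPM after lemborexant (median 4.04) and 2.21 to 4.51 after vehicle (median 3.44). The Cst7-low libraries, at 3.05, 3.68, 2.79 and 2.21 CPM, overlapped the other 15, at 2.82 to 6.81. Lemborexant 6, 2, 9 and 3 exceeded every vehicle library, and the other 6 lay within the vehicle range. Those 6 include the nearly alike partners of 9 and 3: lemborexant 9 had 5.74 CPM and its partner 4 had 3.47, lemborexant 3 had 4.62 and its partner 8 had 3.04. Mean Cfp was 4.43 ± 1.44 CPM (SD, n = 10) against 3.39 ± 0.708 (SD, n = 9). The log2 change was 0.38 ± 0.18 (SE; 95% interval 0.02 to 0.74; edgeR p = 0.0488, adjusted p = 0.192). With the pairs summed it was 0.45 (unadjusted p = 0.0297, adjusted p = 0.195). In both fits this was the smallest p of the 9 genes and failed the correction; its adjusted p ran from 0.0924 to 1.0 over the alternatives. The border macrophage list given above was higher in the same direction, and its part was not tested. Cfp varied too little (SD 0.41 on the log2 scale) for the nearest genes, Wnk1, Notch1 and Irf2bp2 (0.24 each), to set it apart from any flat gene.

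Serping1 encodes C1 inhibitor, which inactivates C1r and C1s (ENSMUSG00000023224, chromosome 2, 84765387 to 84775444, minus strand). The Cst7-low libraries were at 11.9, 10.4, 9.50 and 5.31 CPM and the other 15 at 22.4 to 91.1. As for C1q and C4b, the 2 sets did not overlap. The step was the smallest of the 7 genes, with a ratio of medians of 4.84. Against C4b its count ratio was 0.165 to 0.208 in the Cst7-low libraries and 0.0806 to 0.158 in the others, again without overlap. By treatment the medians were 46.9 CPM (10.4 to 91.1) and 40.4 (5.31 to 52.6), the means 45.2 ± 25.6 (SD, n = 10) and 36.4 ± 17.3 (SD, n = 9), and the log2 change 0.31 ± 0.41 (SE; 95% interval -0.49 to 1.12; edgeR adjusted p = 0.651). With the pairs summed it was 0.44 (adjusted p = 0.562).

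Lemborexant 2 had the highest Serping1 and also the highest sum of meningeal fibroblast markers, 302 CPM where the other libraries reached at most 241. That list overlapped between the Cst7-low libraries (142 to 163 CPM) and the others (61.1 to 302). Of its 6 markers, 0 were lower in all 4, where 6.29% of all tested genes were. By treatment, 5 were higher and 1 lower after lemborexant, with a median log2 change of 0.88. Of the 6, 0 were called, where 2.61% of all tested genes were. The part of these fibroblasts in Serping1 was not tested. The genes nearest to Serping1 were Plscr2 (0.22), Galnt15 (0.22) and S1pr3 (0.23), a sphingosine phosphate receptor.

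C3ar1 and C5ar1 encode the receptors of C3a and C5a, the small peptides released when C3 and C5 are cleaved. C3ar1 (ENSMUSG00000040552, chromosome 6, 122847138 to 122856161, minus strand) was at 6.64, 6.97, 3.04 and 2.30 CPM in the Cst7-low libraries and 17.8 to 76.3 in the other 15. By treatment its median was 27.9 CPM (6.64 to 76.3) after lemborexant and 35.8 (2.30 to 62.1) after vehicle. The means were 32.7 ± 22.9 (SD, n = 10) and 29.8 ± 18.6 (SD, n = 9); on the log2 scale the change was 0.13 ± 0.51 (SE; 95% interval -0.87 to 1.14; edgeR adjusted p = 0.890). With the pairs summed it was 0.34 (adjusted p = 0.742), and without lemborexant 6 its sign turned (-0.10). Its nearest genes were Ms4a6d (0.28), Ms4a6c (0.30) and Tent5c (0.31).

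C5ar1 (ENSMUSG00000049130, chromosome 7, 16246743 to 16259540, minus strand) did not follow its partner. The Cst7-low libraries were at 8.74, 8.13, 3.38 and 3.85 CPM: those of the nearly alike lemborexant pair lay within the range of the other 15 (4.36 to 19.7), and both vehicle libraries lay below it. The C5ar1 to C3ar1 count ratio was 1.11 to 1.67 in the Cst7-low libraries and 0.183 to 0.457 in the others. Medians by treatment were 9.29 CPM (4.36 to 17.2) and 9.61 (3.38 to 19.7), and means 10.7 ± 4.21 (SD, n = 10) and 9.66 ± 4.87 (SD, n = 9); on the log2 scale the change was 0.14 ± 0.29 (SE; 95% interval -0.42 to 0.70; edgeR adjusted p = 0.782). With the pairs summed it was 0.23 (adjusted p = 0.695), and among the 15 libraries -0.03 (95% interval -0.53 to 0.47).

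C5ar1 is abundant on neutrophils and monocytes, and S100a8, a neutrophil transcript, was at 0.637 to 6.64 CPM in the Cst7-low libraries and 0 to 5.70 in the others. The summed list of 7 neutrophil and monocyte markers was 1.71 to 13.7 CPM against 2.49 to 18.1. Of the 7, 1, Ly6c2, was lower in all 4, where 6.29% of all tested genes were. S100a8 and Ccr2 were each at 0 in 1 library, Ngp and Ltf in 3 and Camp in 6. By treatment, the 5 markers that passed the filter were all higher after lemborexant, with a median log2 change of 1.53. Of these, 0 were called, where 2.61% of all tested genes were. The part of these cells in C5ar1 was not tested. The nearest genes were Tfcp2l1 (0.30), Ifitm2 (0.31) and Antxr2 (0.32), an anthrax toxin receptor.

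**Figure D3:**
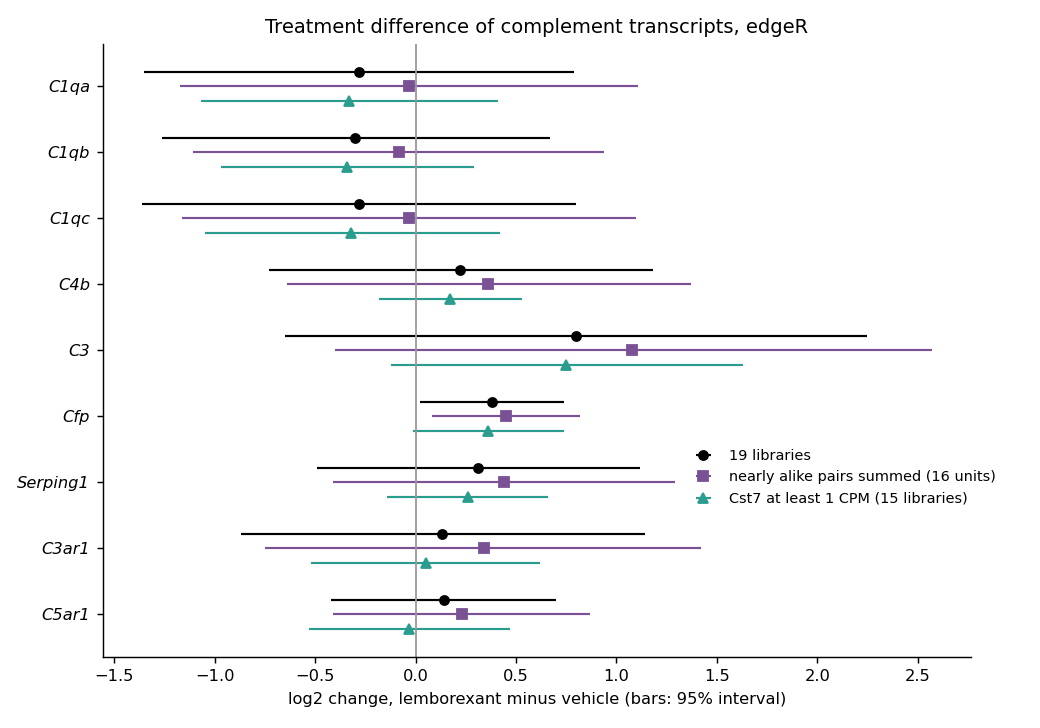
Log2 change of each transcript, lemborexant minus vehicle, with 95% intervals, from edgeR fits to 19 libraries (circles), to 16 units with nearly alike pairs summed (squares) and to the 15 libraries with Cst7 of at least 1 CPM (triangles). C1q changes lie below 0 with intervals that include 0, C3 has the widest interval, and no gene passed an adjusted p of 0.05 in any of these fits.

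Of the 47 other complement genes, 34 passed the filter on low counts. By treatment 22 were higher and 12 lower, where 10237 of all tested genes were higher and 8868 lower. The median log2 change was 0.07, beside 0.14 for the 9 members and 0.03 for all tested genes. In the classical group 1 of 4 was called, where 2.61% of all tested genes were. C2, the protease that joins cleaved C4, was at 2.73 to 9.04 CPM after lemborexant (median 3.89) and 0.795 to 3.92 after vehicle (median 2.29), with overlapping ranges. Its mean rose from 2.23 ± 1.01 CPM (SD, n = 9) to 4.64 ± 1.91 (SD, n = 10); on the log2 scale the change was 1.06 ± 0.28 (SE; edgeR adjusted p = 0.0449). C2 passed in 9 of 32 alternatives and missed with the pairs summed (1.09, adjusted p = 0.101) and in the 15 libraries (0.97, adjusted p = 0.0684). C1ra and C1s1, the partner proteases of C1q, differed little (log2 changes of 0.06 and 0.03).

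Genes for sushi-domain proteins of neurons, some of which are known to limit complement at synapses, gave the only other call. Sez6 was at 38.8 to 90.5 CPM after lemborexant (median 75.2) and 87.2 to 144 after vehicle (median 103). Its mean fell from 106 ± 18.9 CPM (SD, n = 9) to 74.8 ± 15.9 (SD, n = 10); on the log2 scale the change was -0.50 ± 0.13 (SE; edgeR adjusted p = 0.0489), and 1 of 8 genes in the group was called. Sez6 passed in 10 of 32 alternatives; it missed with the pairs summed (-0.55, adjusted p = 0.0916) and in the 15 libraries (-0.44, adjusted p = 0.0792). Its relatives Sez6l and Sez6l2 were at -0.12 and 0.06, and Susd4 at -0.26. Hippocampal markers were lower after lemborexant in 6 of 6 genes, with 1 called (C1ql2, adjusted p = 0.0441; not called with the pairs summed), and summed to 108 to 490 CPM against 381 to 605 after vehicle. Thalamic and hypothalamic markers had a positive log2 change after lemborexant in 6 of 6 genes. In the 19 libraries 5 were called, where 2.61% of all tested genes were, and 0 with the pairs summed. Among them were Rora (median 64.0 against 39.2 CPM, adjusted p = 0.0314) and Tcf7l2 (61.4 against 38.2, adjusted p = 0.0438). The called genes Pmch, Avp and Trh held extreme values, with maxima after lemborexant of 1170, 452 and 204 CPM. Their medians were 0.51, 0.634 and 1.94 CPM after lemborexant and 0.724, 0.543 and 0.179 after vehicle, so Pmch had the lower median after lemborexant. The sum of the list ran from 88.4 to 1970 CPM after lemborexant and from 47.0 to 111 after vehicle. Lemborexant 7, lowest for Sez6, held the highest sum, and the next library reached 285. The part of the dissected regions in Sez6 was not tested.

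Between the Cst7-low libraries and the rest, 5 of these 34 genes were lower in all 4, beside the 6.29% of all tested genes. Among the receptors, Itgax was at 0.0361 to 0.196 CPM against 8.80 to 31.0, Itgb2 at 6.27 to 11.5 against 16.1 to 54.9, and Itgam at 12 to 14.9 against 16.9 to 50.6; paired with Itgb2, Itgam and Itgax form complement receptors 3 and 4 for C3 fragments. Itgax is also on the activation list. Clu, clusterin, which blocks the terminal complex and is an abundant astrocyte product, was at 1820 to 1970 CPM against 2780 to 6270. Cfb, factor B of the alternative pathway, was at 0 to 0.802 CPM against 0.866 to 26.7, with the highest value in vehicle 7.

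Transcripts of the terminal group were scarce. Of 7 terminal genes 2 passed the filter, Hc, which encodes C5, at 0.309 to 5.72 CPM over all libraries and C8g at 1.43 to 14.5. Cfd, factor D, which belongs to the alternative pathway, had 0 reads in all 19 libraries, and the reason was not tested. In the lectin group 3 of 8 passed, led by Masp1 at 7.69 to 13.8 CPM with a treatment change of 0.04. Of the 8 regulators tested, 0 were called, where 2.61% of all tested genes were. Vitronectin (Vtn) had a treatment change of 0.46 (adjusted p = 0.116). C1qbp (adjusted p = 0.0627) and Lrp1 (0.271) among the receptors did not pass either.

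**Figure D4:**
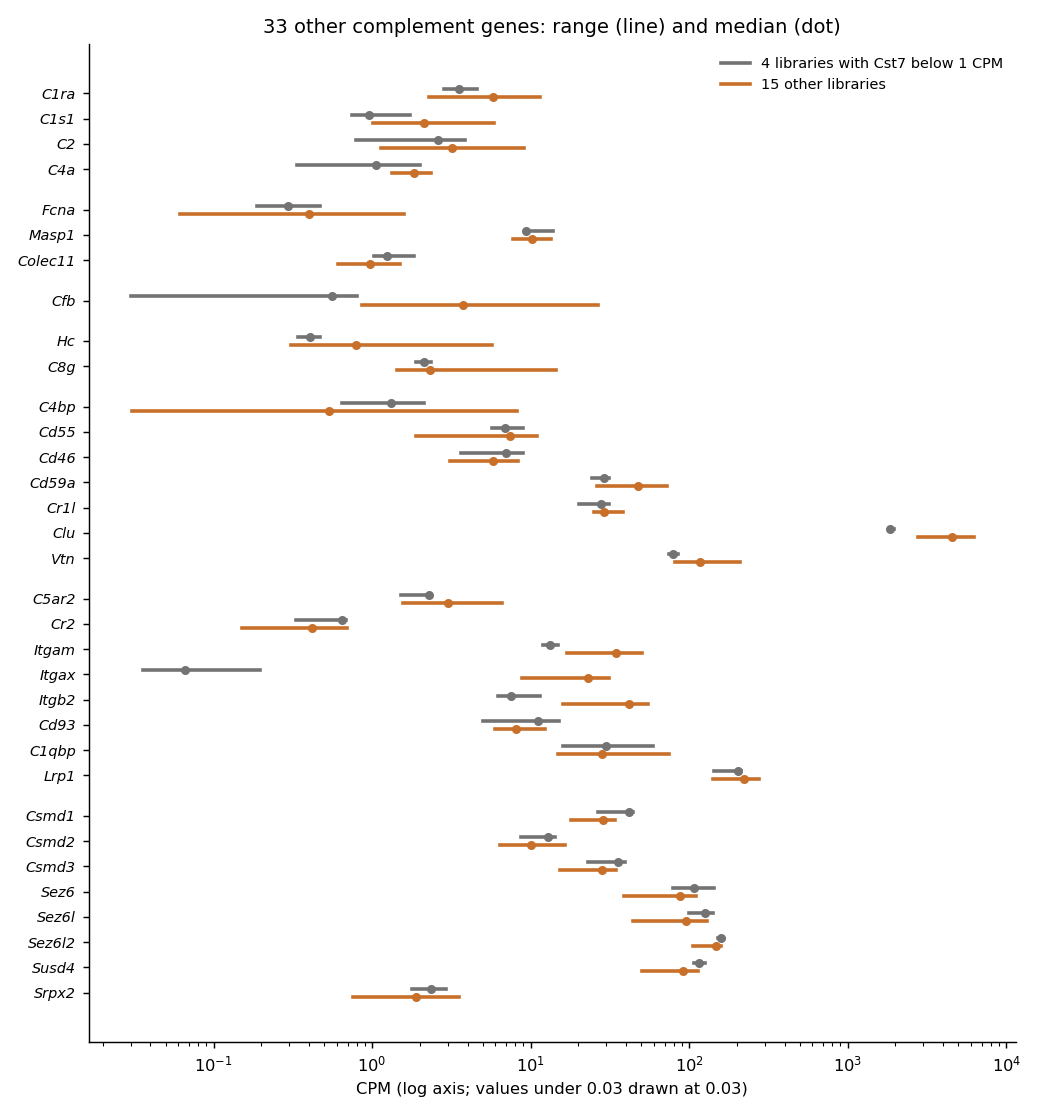
Range (line) and median (dot) of CPM on a log axis for 33 of the 34 other complement genes in the 4 libraries with Cst7 below 1 CPM (grey) and the other 15 (orange), grouped by role. The grey line lies wholly below the orange one for 5 genes: Cfb, Clu, Itgam, Itgax and Itgb2.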

How the data were processed

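Cortex RNA was sequenced from 19 libraries; the submitters' processing notes name bcl2fastq, DRAGEN 3.9.3-8 and GRCm38. No annotation release or strand setting is given in the sources used here. The deposited tables give, per the file headers, estimated counts (NumReads) and TPM per gene, with lengths. Gene symbols came from GENCODE (55141 of 55487 identifiers matched). Estimated counts were rounded and lemborexant was compared with vehicle by edgeR 4.0.16 (quasi-likelihood, TMM, filterByExpr, Benjamini-Hochberg over all tested genes, threshold 0.05) under R 4.3.3. The 95% intervals are the change ± 1.96 SE, a normal approximation, and can be narrower than the quasi-likelihood test implies. For C3 in the 15 libraries with pairs summed, the interval was 0.07 to 1.82 at an unadjusted edgeR p of 0.0517. The C1q ratios were compared by an exact permutation test over libraries. On simulated counts for this comparison (18844 genes), edgeR recovered 30 of 100 genes changed 1.5-fold and 60 of 100 changed 2-fold, with 5 false calls among 95. The changed genes were drawn at random and nearly alike pairs were not simulated, so these shares are not those of the members. The SE of the log2 change ran from 0.18 for Cfp to 0.74 for C3. A change of a member, even of 2-fold, can therefore go uncalled.

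Alternatives were RLE factors, no filter, DESeq2 1.42.0, limma-voom 3.58.1 with quality weights, limma on log2(TPM + 1) and log2(TPM + 0.1), the range of the library number as covariate or alone (1064 to 1602, 859 to 933), nearly alike pairs summed, libraries with Cst7 of at least 1 CPM with and without summing, and leaving out each library. In both number ranges every lemborexant number lies below every vehicle number. Names followed a rule: all 9 members; of the other complement genes those called and the 3 of highest mean CPM in each role group; and 3 nearest genes per member. Marker genes, C4a, and the genes lower in all 4 Cst7-low libraries were named after their values were seen. Members and lists were chosen with earlier results of these data known. Promoters came from RefSeq (GRCm38.p6); C1qa, C4b and Serping1 had no entry. Series text speaks of triplicates; groups were taken from the labels instead. Values of 2 genes that fell under this rule or these lists are not reported here.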

Additional observations from a re-analysis of the deposited data

Results flagged for a closer look

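Of 60 sets of values examined (1 gene in 1 treatment group), 11 had a library whose gap to its nearest neighbour was large for the range of its group. The nominal rate of the rule is about 1 in 20. The sets share libraries and gaps were taken in CPM without logs, so the count cannot be tested against that rate. Among the 9 complement genes, 2 were so marked, both in lemborexant 6: C1qa at 423 CPM, where the next lemborexant library had 234, and C1qc at 350 CPM, where the next had 182. The same library was highest of all for C1qb, C4b, C3, Cfp and C3ar1.

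In vehicle 7, 7 other complement genes stood apart from the remaining vehicle libraries: C1ra at 11.4 CPM (next 6.07), C1s1 at 5.91 (3.13), Fcna at 0.973 (0.402), Cfb at 26.7 (6.83), Hc at 5.72 (0.867), C8b at 4.32 (0.260) and C8g at 14.5 (2.82). Hepatocyte markers summed to 1530 CPM in that library. Sez6 was at 38.8 CPM in lemborexant 7, where the next lowest lemborexant library had 66.2, and Sez6l2 was at 106 CPM in vehicle 5, where the next lowest vehicle library had 138.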

How the results depend on the processing

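Over 288 values (9 members under 32 alternatives), 0 passed the threshold and 10 changed sign; the lowest adjusted p was 0.0924, for Cfp on log2(TPM + 1). In the 5 libraries numbered 859 to 933, C4b (-0.47), C3ar1 (-0.32), C5ar1 (-0.38) and Serping1 (-0.19) turned negative; so did C3ar1 under limma-voom (-0.03), and C5ar1 in libraries with Cst7 of at least 1 CPM (-0.03). Leaving out 1 library gave C3ar1 changes from -0.10 to 0.34. The C1qb to C1qa difference turned to -0.026 with pairs averaged and ran from -0.022 to 0.062 with 1 library left out; C1qc to C1qa turned to 0.013 in libraries with Cst7 of at least 1 CPM.

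The number of genes called over the whole table, 498, depended strongly on the setting: 254 without the filter, 1810 with DESeq2, 2251 with limma-voom, 118 on log2(TPM + 1), 26 on log2(TPM + 0.1), 294 with the number range as covariate, 8 in libraries 1064 to 1602, 0 in libraries 859 to 933 (910 at an unadjusted p below 0.05), 0 with pairs summed (4101), 0 with Cst7 of at least 1 CPM and pairs summed (3931), and 302 without vehicle 7. Leaving out 1 library gave 31 (lemborexant 9) to 1274 (vehicle 8); it also moved the count by over 1.5 times for lemborexant 2 (237), 4 (35), 6 (1130) and 8 (257) and vehicle 1 (844), 2 (250), 3 (189), 4 (39), 5 (76), 6 (275) and 7 (302). The share called higher was 182 of 498, and 88 of 118 on log2(TPM + 1), where the median of all genes shifted to 0.176. C2 and Sez6 kept their direction in 32 of 32 alternatives but missed the threshold in 23 and 22, including 13 and 12 of 19 libraries left out. The fit with a treatment by number range term called 0 of 19105 genes (673 unadjusted). No paired analysis was possible because the labels give no replicate numbers.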

Other observations

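Several complement genes that liver is known to supply to plasma were highest in vehicle 7. Of the 47 other complement genes 15 had their highest CPM in that library, and 6 were there more than 10 times as high as in any other: Mbl1 (4.09 CPM), Mbl2 (6.22) and Cfi (6.22), which encode the mannose-binding lectins and factor I, and C6 (3.85), C8b (4.32) and C9 (5.17), which encode parts of the membrane attack complex. In the other 18 libraries Mbl1 had 0 reads. Among the 9 members, C3 was at 60.4 CPM in vehicle 7 and C4b at 510, each the highest of the vehicle group, while C1qa, at 184 CPM, was below vehicle 3 and vehicle 5.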
